A study of Homo sapiens with 10 samples.

Results

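CRTAP, the cartilage-associated protein, is a non-catalytic partner of the enzyme that 3-hydroxylates proline in procollagen. Its transcript was followed here together with the transcripts of 9 other proteins of collagen prolyl and lysyl hydroxylation in head and neck cancer (HNC) cells that received miR-7. The 10 genes were P3H1 and PPIB, whose products form a complex with CRTAP, the related prolyl 3-hydroxylases P3H2 and P3H3, the prolyl 4-hydroxylase beta subunit P4HB, the lysyl hydroxylases PLOD1, PLOD2 and PLOD3, and the procollagen chaperone SERPINH1. All probes annotated to these symbols were taken (P3H1, P3H2 and P3H3 also under their older names LEPRE1, LEPREL1 and LEPREL2), which gave 14 probes on each array type for 10 of 18665 annotated genes in HN5 and 10 of 20046 in FaDu. CRTAP was chosen by its own log2 fold changes in these data, as one of the top responders. Its values with miR-7 are therefore a description and carry no test. The 9 other genes were chosen for their function beside it, though with earlier results of these data known.

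HN5 and FaDu are established lines of human squamous cell carcinoma of the head and neck. Each line was transfected with a miR-7 precursor, a synthetic RNA that the cell turns into mature miR-7, or with miR-NC, a negative-control precursor, and total RNA was taken after 24 h. HN5 was hybridized to 2 arrays per precursor and FaDu to 3 arrays per precursor, all labelled as biological replicates, with a different Illumina BeadChip for each line. The values are normalized log2 probe intensities from whole-culture RNA, in which fewer cells of a type and less RNA per cell cannot be told apart.

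Procollagen chains are hydroxylated in the endoplasmic reticulum before they fold into a triple helix. Prolyl 4-hydroxylation makes the helix stable at body temperature, lysyl hydroxylation prepares sites for sugars and for cross-links, and 3-hydroxylation of single prolines is carried out by a complex of P3H1, CRTAP and the cyclophilin PPIB, in which CRTAP and P3H1 protect each other from degradation. Loss of CRTAP, P3H1 or PPIB causes recessive forms of osteogenesis imperfecta, a brittle bone disease. A microRNA pairs with messenger RNAs mainly through its seed, bases 2 to 8 of the mature strand, and usually lowers the transcripts it pairs with. The mature strand of human miR-7 is printed below because it is the agent that separates the groups, with the seed in capitals (RefSeq, GRCh38.p14, where the reference used held the loci chr9:83969811-83969834 on the minus strand and chr19:4770700-4770723 on the plus strand):
hsa-miR-7-5p: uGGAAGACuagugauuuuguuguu
An mRNA stretch that pairs with all 7 seed bases reads GUCUUCC, 5′ to 3′. The untranslated regions of the 10 transcripts were not analysed here for such stretches.

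The label check used EGFR, the receptor at the centre of the study. By the sample labels, EGFR was lower with miR-7 in HN5 (log2 fold change -1.67, adjusted p = 0.0492, limma) and went up with that label in FaDu (log2 fold change 1.57, adjusted p = 2.6e-06, limma). The HN5 call is a weak one: 6 of 14 alternatives lost it, among them the replicate block, the methods' t-test and leaving out HN5 miR-NC replicate 1 or miR-NC replicate 2, with adjusted p from 2.4e-06 to 0.529. The 3 dimmer EGFR probes gave -0.50, -0.21 and -0.69 in HN5, and the mean of the gene's probes gave -0.77. In the fit over all probes none of the 3 passed, nor did the brightest probe (limma adjusted p = 0.0789). In FaDu the dimmer probes gave 0.45 and 0.18, and the last, detected on no array, gave -0.16. The FaDu direction is opposite to the one that the study gives for this line, so every FaDu value below is for the arrays labelled miR-7 against the arrays labelled miR-NC, and its sign holds only as far as those labels do. The median probe intensity lay between 114.4 and 158.5 over all 10 arrays. HN5 miR-7 replicate 2 stood apart, with correlations of 0.904 to 0.923 with the other HN5 arrays over the probes kept. The 3 other HN5 arrays reached 0.981 to 0.986 with their nearest array, and the FaDu arrays correlated at 0.975 to 0.996. All 9 squamous epithelial markers on the arrays, among them KRT5, KRT14 and CDH1, were detected on every array of both lines.

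A gene was tested when one of its probes was detected (detection p under 0.01) on all arrays of a group, and its brightest such probe stood for it. That left 8 of the 10 genes in HN5 (PPIB and P3H3 dropped out) and 9 in FaDu (P3H3 dropped out). None of the genes other than CRTAP entered only through the group in which it was higher, since every tested probe of theirs was detected on all arrays of the line. Beside CRTAP, 0 of 7 genes passed an adjusted p under 0.05 in HN5 (limma), where 0.304% of all 9549 genes tested did. A single one, PLOD1, passed at an unadjusted p under 0.05, beside 1261 of all 9549 genes. The methods' t-test after adjustment called 0. With 2 HN5 arrays per precursor, the groups of an unchanged gene can often separate by ordering alone. Non-overlap in HN5 therefore describes the readings below and is not a test. In FaDu, 4 of 8 genes passed, against 41.8% of all 9997 genes tested: P3H1 and PLOD2 fell (21.8% of all genes were lower) and P3H2 and PLOD1 rose (20.0% were higher) in the arrays labelled miR-7. The members' share in FaDu thus lay near the share of all genes. The median log2 fold change of these genes was -0.022 in HN5 and 0.00077 in FaDu, beside 0.043 and -0.029 over all genes tested. At the study's thresholds, an unadjusted p under 0.05 and at least a 1.5-fold change, 1 of 7 passed in HN5 (10.4% of all genes) and 2 of 8 in FaDu (12.6% of all genes).

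**Figure D1:**
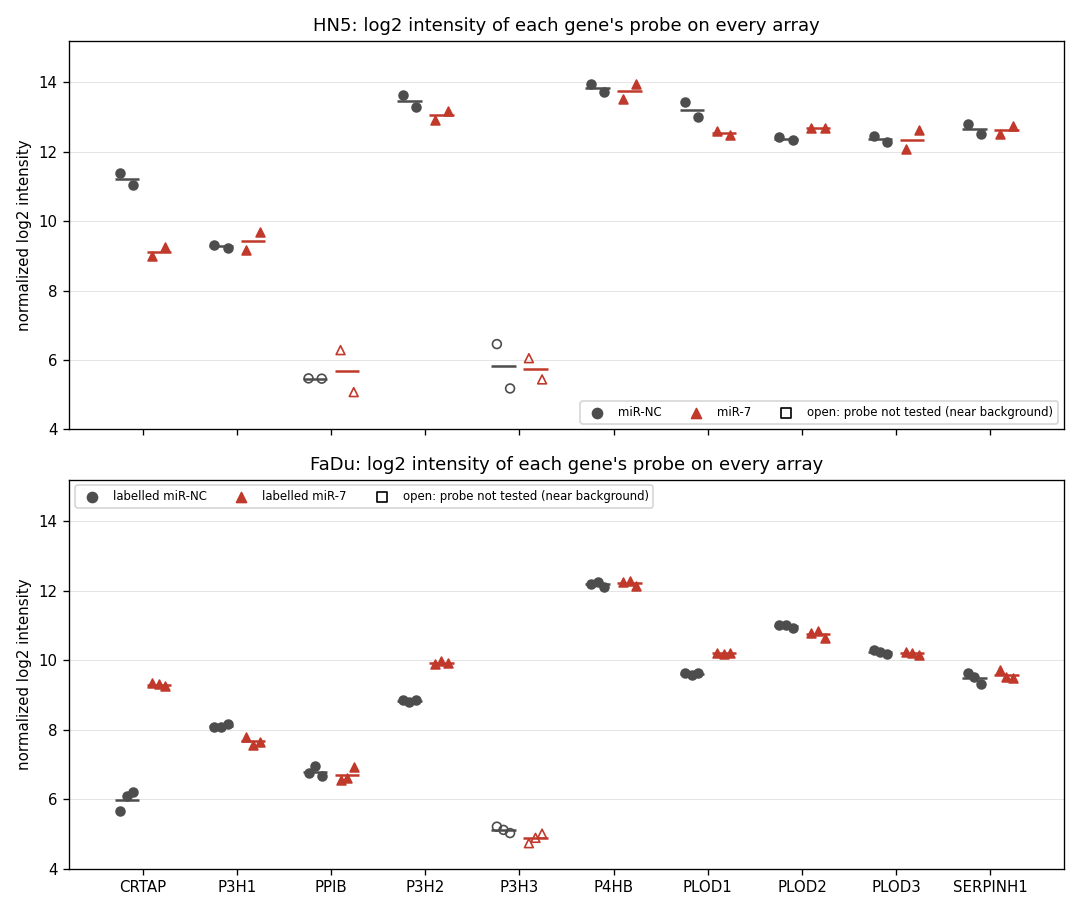
Normalized log2 intensity (y axis) of the probe that stands for each of the 10 genes (x axis) on every array of HN5 (upper panel) and FaDu (lower panel), with circles for miR-NC, triangles for miR-7 and lines for group means. Open symbols mark probes that were not tested. The circles and triangles of CRTAP lie apart in both lines, with miR-7 lower in HN5 and, by label, higher in FaDu. No other tested gene differs by more than the 1.10 log2 units of P3H2 in FaDu.

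The CRTAP transcript stood at a level 4.27-fold below that of miR-NC in HN5, whereas by label FaDu held 9.95-fold more of it with miR-7. These were the widest differences among the 10 genes in both lines, which the choice of CRTAP as a top responder favoured. In HN5, its brighter probe (ILMN_1665235) read 11.39 and 11.05 on the miR-NC arrays and 9.01 and 9.24 on the miR-7 arrays. The groups did not overlap, and the means were 11.2 ± 0.25 with miR-NC and 9.13 ± 0.17 with miR-7 (SD, n = 2 each). The log2 fold change was -2.09 with a standard error of 0.22 (95% interval -2.64 to -1.55). The interval does not allow for the choice of CRTAP by this value and is not a test. Leaving out HN5 miR-7 replicate 2, the array that stands apart, gave -2.20.

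In FaDu, the same probe read 5.65, 6.10 and 6.20 on the arrays labelled miR-NC and 9.34, 9.30 and 9.25 on those labelled miR-7. All 3 miR-7-labelled arrays were far above all 3 miR-NC-labelled arrays. The means were 9.30 ± 0.045 and 5.98 ± 0.30 (SD, n = 3 each). The log2 fold change was 3.32 with a standard error of 0.13 (95% interval 3.01 to 3.62, which again does not allow for the choice of CRTAP). The lower FaDu group lay at the edge of detection, since the probe missed the detection limit on miR-NC replicate 1, with a detection p-value of 0.0117, and passed it on both others. The size of the FaDu difference moved with the handling of background, and was 2.15 without background correction, 2.77 with an offset of 50 in place of 16, and 1.68 on the authors' own log2 values.

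The other CRTAP probes were dimmer. Probe ILMN_1720484 read 8.03 and 8.11 with miR-NC and 6.37 and 6.80 with miR-7 in HN5, a log2 difference of -1.49. In FaDu it read 5.60, 5.46 and 5.52 in the arrays labelled miR-NC and 7.15, 6.88 and 6.86 in those labelled miR-7, a log2 difference of 1.44. This probe thus ran the same way as the brighter one in each line, without overlap, but by a smaller amount, and 1 of 2 miR-7 arrays in HN5 and 2 of 3 arrays labelled miR-NC in FaDu did not reach detection. Probe ILMN_1807986 was detected on no array of either line and gives no level.

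**Figure D2:**
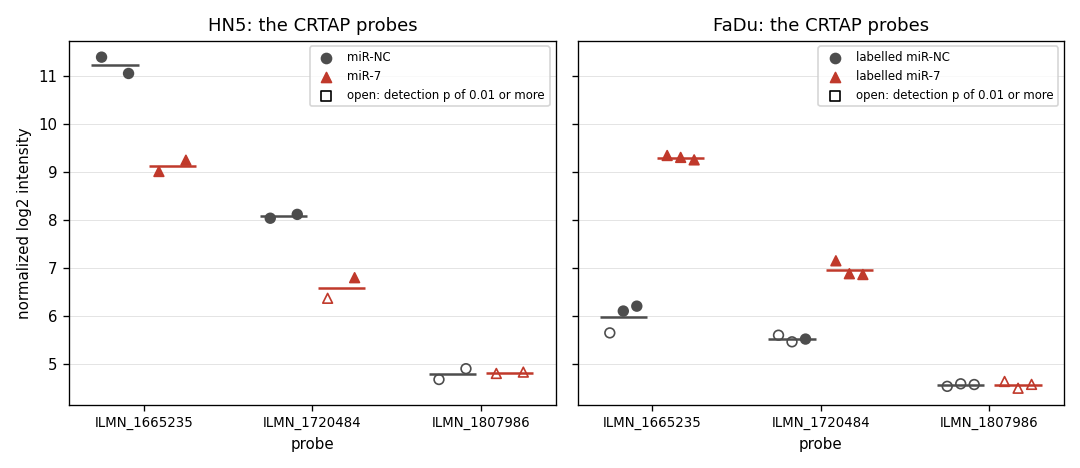
Normalized log2 intensity (y axis) of the 3 CRTAP probes (x axis) on every HN5 array (left) and FaDu array (right), with circles for miR-NC, triangles for miR-7, lines for group means and open symbols where the detection p was 0.01 or more. The 2 brighter probes differ the same way within each line, and the third stays between 4.49 and 4.90 on every array.

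P3H1 encodes the catalytic subunit of the CRTAP complex, and its transcript did not run with that of CRTAP in either line. Its probe read 9.32 and 9.23 with miR-NC and 9.18 and 9.70 with miR-7 in HN5, so that the groups overlapped. The log2 fold change was 0.17 (standard error 0.24, 95% interval -0.42 to 0.76, limma adjusted p = 0.768), and it was -0.09 without miR-7 replicate 2. In FaDu, P3H1 read 8.07, 8.09 and 8.17 in the arrays labelled miR-NC and 7.79, 7.57 and 7.64 in those labelled miR-7. It fell there by 0.45 on the log2 scale, a change of 1.36-fold (standard error 0.079, limma adjusted p = 0.00241). The call held in all 16 alternatives, with adjusted p from 0.000604 to 0.0190, although the size was -0.24 on the authors' log2 values. P3H1 was lower on each of the 3 miR-7-labelled arrays, where CRTAP was higher.

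PPIB encodes cyclophilin B, the prolyl isomerase of the complex. Its single probe was not detected on any HN5 array, where it read 5.47 and 5.46 with miR-NC and 6.29 and 5.08 with miR-7, so no HN5 level can be given. PPIB is a widely expressed gene, and whether this probe reads its transcript well was not tested. FaDu readings were low but detected on all 6 arrays, at 6.75, 6.95 and 6.67 in the arrays labelled miR-NC and 6.54, 6.60 and 6.94 in those labelled miR-7. The FaDu groups overlapped, and the log2 fold change was -0.094 (95% interval -0.37 to 0.18, limma adjusted p = 0.561).

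P3H2 encodes a prolyl 3-hydroxylase best known for acting on basement membrane collagen, and it was the gene with the clearest tested change. HN5 readings were 13.63 and 13.30 with miR-NC and 12.92 and 13.18 with miR-7. The HN5 groups did not overlap, but the log2 fold change of -0.41 did not pass (standard error 0.22, 95% interval -0.95 to 0.13, limma adjusted p = 0.460). FaDu readings were 8.85, 8.79 and 8.85 in the arrays labelled miR-NC and 9.89, 9.99 and 9.91 in those labelled miR-7. P3H2 rose there 2.15-fold (log2 fold change 1.10, standard error 0.066, n = 3 each, limma adjusted p = 8.4e-06), and the call held in all 16 alternatives, with adjusted p from 1.3e-10 to 0.00140. P3H3, the third enzyme of this family, was detected on 1 HN5 array and on no FaDu array. Its probe read between 5.18 and 6.46 in HN5 and between 4.73 and 5.21 in FaDu.

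P4HB encodes protein disulfide isomerase, which also serves as the beta subunit of collagen prolyl 4-hydroxylase. Its probe was among the brightest of the set, at 13.94 and 13.71 with miR-NC and 13.53 and 13.94 with miR-7 in HN5. In FaDu it read 12.19, 12.24 and 12.12 in the arrays labelled miR-NC and 12.26, 12.28 and 12.14 in those labelled miR-7. The groups overlapped in both lines. The log2 fold change was -0.090 in HN5 (95% interval -0.65 to 0.47, limma adjusted p = 0.878) and 0.045 in FaDu (95% interval -0.12 to 0.21, adjusted p = 0.648).

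The catalytic alpha subunits that pair with P4HB were on the arrays as P4HA1, P4HA2 and P4HA3, and P4HA3 was detected on no array. Both others fell in the FaDu arrays labelled miR-7. P4HA1 went from a mean of 9.53 to 9.04 (log2 fold change -0.50, standard error 0.064, limma adjusted p = 0.000458) and P4HA2 from 9.09 to 8.54 (log2 fold change -0.54, standard error 0.065, adjusted p = 0.000301), with no overlap of the groups in either gene. Both calls held in all 16 alternatives. In HN5 the log2 fold changes were 0.11 (adjusted p = 0.833) and -0.070 (adjusted p = 0.905), and the groups overlapped.

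PLOD1 encodes lysyl hydroxylase 1, which acts on the helical part of collagen. HN5 readings were 13.42 and 13.01 with miR-NC and 12.59 and 12.48 with miR-7. Both miR-7 arrays lay below both miR-NC arrays, a 1.6-fold difference (log2 fold change -0.68, standard error 0.22, 95% interval -1.22 to -0.14), which passed the study's thresholds (unadjusted p = 0.0227) but not adjustment over all genes (limma adjusted p = 0.300). Without miR-7 replicate 2 the value was -0.63 (adjusted p = 0.195), and without miR-7 replicate 1 it was -0.73 (adjusted p = 0.0426). FaDu readings were 9.63, 9.56 and 9.64 in the arrays labelled miR-NC and 10.20, 10.17 and 10.21 in those labelled miR-7. PLOD1 rose there 1.5-fold without overlap (log2 fold change 0.59, standard error 0.064, limma adjusted p = 0.000189), and the call held in all 16 alternatives.

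PLOD2 encodes lysyl hydroxylase 2, which modifies the collagen telopeptides and so sets the type of cross-link. Its brightest probe read 12.42 and 12.34 with miR-NC and 12.68 and 12.69 with miR-7 in HN5, without overlap (log2 fold change 0.30, 95% interval -0.14 to 0.75, limma adjusted p = 0.490). Its 2 other probes gave 0.17 and -0.32 in HN5, so the probes differed in sign. In FaDu the brightest probe read 10.93 to 11.02 over the 3 arrays labelled miR-NC and 10.79, 10.83 and 10.65 in those labelled miR-7. PLOD2 fell there by 0.23 on the log2 scale (standard error 0.074, limma adjusted p = 0.0378), and the 2 other probes gave -0.38 and -0.27 (adjusted p over all probes 0.00897 and 0.0169). The gene's call is a weak one: 8 of 16 alternatives lost it, among them leaving out any single FaDu array other than miR-NC replicate 3, with adjusted p from 0.00674 to 0.299 over all 16.

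PLOD3, which hydroxylates lysine and also adds the sugars, showed overlapping groups in both lines. HN5 readings were 12.44 and 12.27 with miR-NC and 12.07 and 12.63 with miR-7 (log2 fold change -0.0058, 95% interval -0.63 to 0.62, limma adjusted p = 0.993). FaDu readings were 10.29, 10.24 and 10.19 against 10.23, 10.22 and 10.14 in the arrays labelled miR-7 (log2 fold change -0.043, 95% interval -0.20 to 0.11, adjusted p = 0.644). SERPINH1, also known as HSP47, holds the folded procollagen helix on its way out of the endoplasmic reticulum. It read 12.79 and 12.50 with miR-NC and 12.51 and 12.74 with miR-7 in HN5 (log2 fold change -0.022, 95% interval -0.54 to 0.50, adjusted p = 0.974). FaDu readings of SERPINH1 were 9.63, 9.52 and 9.32 against 9.72, 9.52 and 9.50 in the arrays labelled miR-7 (log2 fold change 0.091, 95% interval -0.14 to 0.32, adjusted p = 0.510). The HN5 intervals of both genes are far wider than those of FaDu. Without HN5 miR-7 replicate 2, the HN5 log2 fold changes were -0.28 for PLOD3 and -0.14 for SERPINH1, as well as -0.54 for P3H2, -0.29 for P4HB and 0.30 for PLOD2, and none of them passed (limma adjusted p = 0.273 to 0.842).

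**Figure D3:**
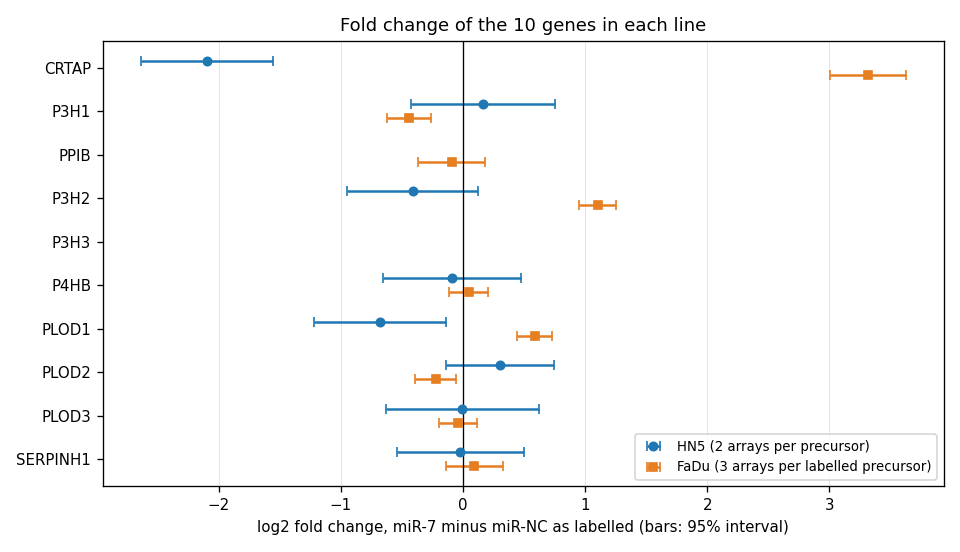
Log2 fold change of miR-7 over miR-NC as labelled (x axis) for each of the 10 genes (y axis), with 95% intervals, in HN5 (circles, 2 arrays per precursor) and FaDu (squares, 3 arrays per labelled precursor). CRTAP lies at -2.09 in HN5 and 3.32 in FaDu, and its intervals do not allow for its choice by these values. P3H2 and PLOD1 lie above 0 in FaDu, P3H1 and PLOD2 below it, and P3H3 has no value in either line.

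Whether the labelled contrast differed between the lines was tested for the probes found on both array types, as the difference of the FaDu and HN5 log2 fold changes. Of 10566 shared probes tested, 14.8% differed at an adjusted p under 0.05. The brighter CRTAP probe differed by 5.41 and the dimmer one by 2.93, which is a description only because the gene was chosen for its response. Among the other genes, P3H2 differed by 1.52 (95% interval 0.96 to 2.07, adjusted p = 0.00914) and PLOD1 by 1.27 (95% interval 0.71 to 1.82, adjusted p = 0.0173). Both had negative values in HN5 and positive values in FaDu, as CRTAP did. P3H1 and PLOD2 differed the opposite way, by -0.61 (adjusted p = 0.163) and -0.53 (adjusted p = 0.116), and did not pass. The calls of P3H2 and PLOD1 rest on both HN5 miR-NC arrays, since without miR-NC replicate 1 or without miR-NC replicate 2 of HN5 the count of genes that differed went from 2 to 0, and without HN5 miR-7 replicate 1 it went to 4. With the FaDu sign turned, an alternative added after the data were seen because EGFR ran against the FaDu labels, 0.237% of the shared probes differed and none of the genes other than CRTAP passed, with P3H2 at an unadjusted p under 0.05. The turned difference was -0.69 for P3H2 (95% interval -1.24 to -0.13, adjusted p = 0.449) and 0.095 for PLOD1 (95% interval -0.46 to 0.65, adjusted p = 0.894). For CRTAP it was -1.22 with the brighter probe and 0.056 with the dimmer one. The lines were run on different array types, and array type and line cannot be told apart.

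The genes whose pattern over the 10 arrays was nearest to that of CRTAP were found among 8490 genes tested in both lines by the root-mean-square difference of log2 values, each line centred on its own mean. First came POLE4, a DNA polymerase epsilon subunit (0.21), then PSME3, a proteasome activator (0.226), SLC39A11, a zinc transporter (0.372), ZDHHC9, a palmitoyltransferase (0.377), and IL1B, the cytokine interleukin 1 beta (0.379), where the median over all genes was 1.49. Their log2 fold changes ran from -2.27 (POLE4) to -1.38 (ZDHHC9) in HN5 and from 2.44 (SLC39A11) to 3.34 (PSME3) in FaDu, beside -2.09 and 3.32 for CRTAP. SLC39A11 was detected on 1 of 3 FaDu arrays labelled miR-NC. It passed the filter only through its higher group there, and its FaDu value is a description. None of these 5 belongs to the collagen lists used here. P3H2 was the nearest of the hydroxylation genes at 1.02, followed by PLOD1 at 1.16, and P3H1, the partner of CRTAP, was the farthest at 1.63. The value of P3H1 lay near the median over all genes. These distances follow from the fold changes already given, and CRTAP was chosen by its own, so the order is a description only.

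Collagen synthesis and related gene families were followed through 10 lists with 139 genes in all. The lists ran from the prolyl 4-hydroxylase subunits described above to the collagens themselves. They also took in other cyclophilins, other 2-oxoglutarate dioxygenases and hypoxia-induced transcripts, which reach beyond collagen. The hypoxia list holds PLOD2, a gene already described. In HN5, 0 of 87 genes tested passed (limma), 10 had an unadjusted p under 0.05, and the methods' t-test after adjustment called 0 in each list. Over all HN5 genes tested, 1261 of 9549 had an unadjusted p under 0.05. Among 85 genes tested in FaDu, 26 fell and 14 rose with the miR-7 label, beside 21.8% and 20.0% of all genes. Of the 14 that rose, 6 (MIA3, TGM2, COL27A1, COL4A6, EGLN3 and TET1) were detected on 0 or 1 of 3 arrays labelled miR-NC. They passed the filter only through the group in which they were higher and so had to differ, and their values below are a description. With detection required on every array, 8 genes rose and 27 fell. Some calls also moved with the scaling: BMP1, HSPA5, DNAJB11 and TMEM38B lost theirs with median scaling (adjusted p = 0.0879, 0.0872, 0.138 and 0.129), and SAR1A with the methods' t-test (adjusted p = 0.0596). Of the other collagen chaperones and glycosyltransferases, 3 of 5 fell: P3H4 (log2 fold change -0.30, adjusted p = 0.0226), a non-enzymatic relative of CRTAP also called SC65, the isomerase FKBP14 (-0.42, adjusted p = 0.0435), and TMEM38B (-0.28, adjusted p = 0.0101), a potassium channel of the endoplasmic reticulum. P3H4 and FKBP14 each lost the call in 7 of 16 alternatives, and the count of 3 became 1 without FaDu miR-NC replicate 2, miR-NC replicate 3 or miR-7 replicate 3.

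Of 8 other cyclophilins, PPIC fell (-0.28, adjusted p = 0.0156) and PPIL1 fell (-0.40, adjusted p = 0.00285), and PPIC lost its call with median scaling (adjusted p = 0.115) and without miR-7 replicate 1 or miR-7 replicate 2. Of 14 disulfide isomerases and endoplasmic reticulum chaperones, 6 fell and 1 rose, beside 21.8% and 20.0% of all genes. PDIA5 (-0.89, adjusted p = 5.4e-05) and TXNDC5 (-0.88, adjusted p = 9.8e-05), both disulfide isomerases, went down by more than the Hsp40 cochaperone DNAJB11 (-0.32, adjusted p = 0.00827), while the chaperone HSPA5, also called BiP, went up (0.37, adjusted p = 0.00467). The count of 6 became 3 without miR-7 replicate 3. Of 15 genes of procollagen export, SAR1A, a GTPase of the transport coat, fell (-0.45, adjusted p = 0.00880), and the coat protein SEC24C rose (0.52, adjusted p = 0.00122). The export receptor MIA3, also called TANGO1, had a log2 fold change of 0.60, and was detected on 1 of 3 arrays labelled miR-NC.

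Of 5 genes of propeptide cleavage and cross-linking, FURIN, a protease that activates procollagen proteinases (0.73, adjusted p = 0.00140), and BMP1, the procollagen C-proteinase (0.37, adjusted p = 0.00343), rose. PCOLCE2, which enhances the C-proteinase, fell (-0.95, adjusted p = 0.000109). The size for FURIN ran from 0.19 on the authors' log2 values to 0.83. TGM2, a transglutaminase, had a log2 fold change of 0.61, and was detected on 1 of 3 arrays labelled miR-NC. The substrates were few. Type I collagen was represented by COL1A1 in HN5, at a mean of 9.94 with miR-NC and 10.30 with miR-7 (log2 fold change 0.36, adjusted p = 0.575), whereas COL1A1 and COL1A2 were detected on no FaDu array.

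Of 11 fibrillar collagens, 5 were tested in HN5 and 2 in FaDu. COL5A1 fell in the FaDu arrays labelled miR-7 (-0.50, adjusted p = 0.00224), by -0.57 to -0.16 over the alternatives. COL27A1 was not above background on any FaDu array labelled miR-NC and was at least 1.96-fold higher in those labelled miR-7, the bound being set against the dimmest detected probe of each array. Of 9 other collagens tested in FaDu, 4 rose (3 with detection required on every array, without COL4A6) and 0 fell. Over all genes, 20.0% rose and 21.8% fell. Among the collagens that rose were COL16A1 (0.56, adjusted p = 0.000444), COL7A1, the anchoring fibril collagen (0.51, adjusted p = 0.000893), and COL4A5, a basement membrane chain (0.55, adjusted p = 0.00101). The size for COL16A1 was 0.22 to 0.62 over the alternatives. In HN5 the medians of the 2 collagen lists were -0.28 and -0.24, with no gene past the test.

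**Figure D4:**
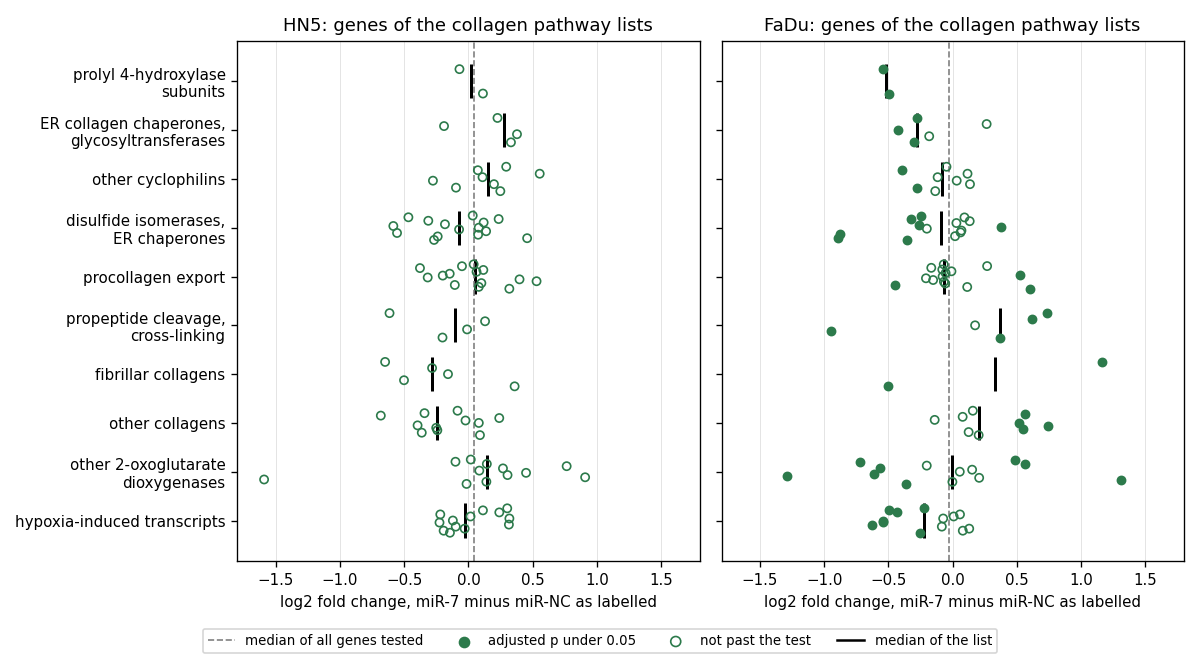
Log2 fold change of miR-7 over miR-NC as labelled (x axis) for each tested gene of the 10 pathway lists (y axis) in HN5 (left) and FaDu (right), with filled symbols at an adjusted p under 0.05, short bars for list medians and a dashed line for the median of all genes tested. No HN5 symbol is filled. In FaDu the prolyl 4-hydroxylase subunits lie at the left (median -0.52) and the genes of propeptide cleavage and cross-linking mostly at the right (median 0.37).

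P3H and P4H enzymes and the lysyl hydroxylases use iron and 2-oxoglutarate, as does a wider enzyme family. Of 13 other members of that family tested in FaDu, 5 fell and 3 rose, beside 21.8% and 20.0% of all genes. With detection required on every array, 1 rose. ASPH, an aspartyl hydroxylase of the endoplasmic reticulum (-1.29, adjusted p = 7.5e-05), KDM3A, a histone demethylase (-0.72, adjusted p = 0.000229), and P4HTM, a transmembrane prolyl 4-hydroxylase (-0.57, adjusted p = 0.000366), fell, and the size for ASPH was -1.41 to -0.46 over the alternatives. EGLN3, which hydroxylates the hypoxia-inducible factors, was at least 1.53-fold higher and TET1, a DNA dioxygenase, at least 1.01-fold higher, both with no array labelled miR-NC above background. KDM4A, another histone demethylase, rose by a log2 fold change of 0.56 with overlapping groups (adjusted p = 0.0258), a call that 6 of 16 alternatives lost, among them leaving out miR-NC replicate 2, miR-NC replicate 3, miR-7 replicate 1 or miR-7 replicate 3.

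P4HA1 and PLOD2 are also known as transcripts induced by low oxygen. Of 13 hypoxia-induced transcripts tested in FaDu, both included, 6 fell and 0 rose in the arrays labelled miR-7, with a list median of -0.23. Over all genes tested in FaDu, 21.8% fell and 20.0% rose, with a median of -0.029. BNIP3, a mitochondrial protein of cell death and mitophagy (-0.63, adjusted p = 0.000235), and ADM, the peptide hormone adrenomedullin (-0.54, adjusted p = 0.00124), were 2 of the 6. In HN5 the same list had 0 of 13 past the test (limma), 0 at an unadjusted p under 0.05, and a median of -0.029. Over all HN5 genes tested, 1261 of 9549 had an unadjusted p under 0.05, and the median was 0.043.

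Markers of other cell types were read beside these groups. In FaDu, 8 of 9 squamous markers rose in the arrays labelled miR-7 and 0 fell, beside 20.0% and 21.8% of all genes. Examples were PKP1 (0.99, adjusted p = 2.7e-05), KRT14 (0.68, adjusted p = 0.000157) and KRT5 (0.45, adjusted p = 0.00190). The 8 became 5 with median scaling and with the methods' t-test. The ninth marker, CDH1, stood at -0.21 without passing the threshold, and 1 marker was lower past it in 5 of 16 alternatives. The markers' summed intensity was 12600 to 13500 there and 10100 to 10600 in the arrays labelled miR-NC, and their part in the FaDu differences of the collagen genes was not tested. In HN5 the sums were 113000 to 115000 with miR-7 and 128000 to 138000 with miR-NC. There 0 of 9 markers passed the test (limma) and 1 had an unadjusted p under 0.05, beside 1261 of all 9549 genes tested. Fibroblast markers, which would accompany most collagen-producing cells, were detected on no FaDu array (0 of 10), and 2 of 10 (COL1A1 and PDGFRA) were detected on every HN5 array. Of 9 leukocyte and endothelial markers on the arrays, 2 were detected on every array in each line, and PTPRC, the common leukocyte antigen, on none. In FaDu, CDH5 (0.49, adjusted p = 0.00332) rose, VWF was at least 1.32-fold higher with no array labelled miR-NC above background, so that it too entered only through its higher group, and CD14 fell (-0.39, adjusted p = 0.00604).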

How the data were processed

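Head and neck cancer cell lines were profiled on Illumina BeadChips (4 HN5 and 6 FaDu arrays). The authors deposited raw scanner intensities per probe, beside a detection p-value that the deposited files hold as 1 minus p. They also deposited log2 values, made with the lumi transformation in R 2.11.0 (named in the submitters' processing notes) and quantile normalization in Partek. The cells of the log2 tables did not follow the identifiers beside them and were realigned by the rank order of each array's intensities, for use as an alternative only.

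The neqc function of limma 3.58.1 (R 4.3.3) was used to correct background through the detection p-values (offset 16), quantile-normalize each line and take log2, and the groups were compared with lmFit and eBayes. Probes with 1 annotated gene and a detection p under 0.01 on all arrays of a group were kept, and the brightest stood for the gene. P-values were adjusted by Benjamini-Hochberg over 9549 HN5 and 9997 FaDu genes. Of 48802 HN5 and 47230 FaDu probes, 27577 and 30112 had 1 gene, 13 and 8 had several and 21212 and 17110 had none. Differences between lines were tested per shared probe (39424 identifiers) with moderated standard errors and Welch-Satterthwaite degrees of freedom. Where a probe was above background on no array of a group, the bound sets the brighter group's mean against the dim group's mean of, per array, the higher of the lowest signal among detected probes and the probe's own. The fits were also run on simulated data with independent noise of equal size for every gene. That setting does not model the HN5 array that stands apart. Precision is limited by the number of arrays, and nothing in the labels says more of the replicates than that they are biological.

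The 10 genes, the 13 lists of pathway and marker genes and the tests were chosen with earlier results of these data known. Named genes are the 10 members with all probes, up to 3 genes per list, line and direction with the smallest adjusted p under 0.05, EGFR, and the 5 genes nearest to CRTAP; other genes named were chosen after their values were seen. Alternatives were no background correction, an offset of 50, median scaling, the authors' log2 values, other detection filters, the mean of a gene's probes, the methods' t-test, robust empirical Bayes, a replicate block and leaving out each array. Turning the FaDu sign in the difference between lines was added after the data were seen. Plots were drawn with Python 3.11.15 and Matplotlib 3.10.9.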

Additional observations from a re-analysis of the deposited data

Results flagged for a closer look

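Under the contrast as labelled, CRTAP, P3H2 and PLOD1 differed between the lines, a difference that did not hold for P3H2 and PLOD1 with the FaDu sign turned. CRTAP was lower on both miR-7 arrays of HN5 and higher on all 3 FaDu arrays labelled miR-7 with 2 probes, the FaDu minus HN5 difference of log2 fold changes being 5.41 (ILMN_1665235) and 2.93 (ILMN_1720484). These differences were not tested, because the gene was chosen for its response. P3H2 differed by 1.52 (adjusted p = 0.00914) and PLOD1 by 1.27 (adjusted p = 0.0173) in the test of the difference itself. Of all 10566 shared probes tested, 14.8% differed. The calls of P3H2 and PLOD1 rest on both HN5 miR-NC arrays, as described above. All signs in FaDu rest on the array labels, under which EGFR and IL1B also ran opposite ways in the 2 lines. The study reports both as lowered by miR-7 in HN5 and FaDu. With the FaDu sign turned, an alternative added after the data were seen, the differences were -0.69 for P3H2 (adjusted p = 0.449), 0.095 for PLOD1 (adjusted p = 0.894), and -1.22 and 0.056 for the CRTAP probes. Of the shared probes, 0.237% then differed.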

How the results depend on the processing

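Over all genes, the FaDu counts were the steadier ones. Of the genes other than CRTAP, 4 passed in FaDu and 3 to 4 did in 16 alternatives, with PLOD2 the gene that was lost. In HN5 0 passed, and leaving out 1 array gave 0 to 1 (PLOD1, without miR-7 replicate 1). Genes called in HN5 were 29, and 70 without background correction, 52 with an offset of 50, 57 on the authors' values, 0 with no detection filter, 150 with detection on every array, 0 with the mean of kept probes, 0 with the methods' t-test, 256 with robust empirical Bayes and 11 with the replicate block; leaving out 1 array gave 0 to 1774 (0 without either miR-NC replicate). Genes called in FaDu were 4179, and 2702 with median scaling. At the study's thresholds the methods' t-test called 211 lower and 244 higher genes in HN5 and 525 and 719 in FaDu, and after adjustment 1547 and 1518 in FaDu. Median scaling moved the median of all HN5 genes from 0.043 to -0.15 and the split at those thresholds from 421 lower and 574 higher to 719 and 250.

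CRTAP in HN5 was -2.09, and -2.31 with median scaling, -1.78 on the authors' values and -1.79 with the mean of its probes. CRTAP in FaDu was 3.32, and 2.15 without background correction, 2.77 with an offset of 50, 1.68 on the authors' values and 2.38 with the mean of its probes. Detection on every array left no FaDu value. The count of genes that differed between lines was 2, 0 with the FaDu sign turned, and 0 to 4 when 1 array was left out. In HN5, log2 fold changes near 0 changed sign: P3H1 was -0.064 with median scaling, and with 1 array left out P3H1 was -0.091 to 0.42, P4HB -0.29 to 0.11, PLOD3 -0.28 to 0.27 and SERPINH1 -0.16 to 0.13. The causes were not tested.

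Same-numbered arrays showed little common deviation from their group means (correlation 0.0005 in HN5, and 0.057, -0.032 and 0.028 in FaDu). With so few arrays per group, these values cannot settle whether the arrays were paired by experiment. With the replicate number as a block, 11 genes passed in HN5 and no call of the 10 genes changed.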
